A study of Mus musculus with 32 samples.

Results

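Collagen chain genes were followed in gastrocnemius (GAS) muscle of mice over 28 d after the sciatic nerve was cut. They were taken as the protein-coding genes whose GENCODE mouse symbol reads Col, a number, a and a number, which gave 44 of the 33397 genes in the deposited table. By the structure of the encoded chain, 11 were fibrillar, 6 were basement membrane (type IV) chains and 27 belonged to other classes. The last group held 6 type VI chains, 9 FACITs (fibril-associated collagens with interrupted triple helices), 2 multiplexins, 4 transmembrane collagens, 3 chains of hexagonal networks and 3 remaining genes.

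Every collagen chain coils with other chains into a triple helix. Fibrillar chains assemble into the banded fibrils that give tendon and the connective tissue of muscle their strength, type IV chains form the sheet around every muscle fibre and capillary, and type VI chains form fine filaments between that sheet and the fibrils. FACITs sit on fibril surfaces, multiplexins carry sugar chains at basement membranes, and transmembrane collagens are anchored in the cell surface, some of them at the neuromuscular junction.

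RNA was sequenced from the GAS of mice labelled C57BL/6, which the study describes as young adult C57BL/6J males with a piece of the left sciatic nerve removed. There were 32 samples in 8 groups of 4, at 0, 1, 3, 5, 7, 14, 21 and 28 d. The labels give nerve transection for every group, 0 d included. The study calls its non-denervated group sham, mice operated on with the nerve left whole, and no label used here says whether the 0 d samples came from them. No later day has a group with the nerve left whole. Growth of the mice and the surgery itself therefore cannot be told apart from loss of the nerve. Each column of the table names a day but no individual sample, the columns with the letter C were the 0 d group because no other columns were left for it, and the values of a group were used as 4 replicates. The study speaks of independent biological samples, which no label ties to animals, so the p-values measure the spread between these samples.

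Recovered depth was 14199902 to 17561584 fragments per sample. Values were FPKM, fragments scaled to exon length and to the library's total, so levels of different genes are compared per length. Fragments from mitochondrial genes made up 14.5 to 18.2% of a 0 d library and 6.70 to 11.3% of those at 5 and 7 d. The labels' protocol speaks of retinas. The retina genes Rcvrn, Gnat1 and Prph2 were under the detection filter. Opn1sw passed it, with at most 0.401 FPKM, and was called on no day by limma and as higher at 21 and 28 d by limma-voom. Muscle fibre genes (Acta1, Ckm, Myh1, Myh4, Tnnt3 and Pvalb) summed to at least 20349.7 FPKM in every sample. All 5 genes known to rise in denervated muscle (Chrna1, Chrng, Myog, Ncam1 and Runx1) rose from 3 to 28 d, and 2 of them, Myog and Runx1, already at 1 d. On the first principal component of all genes the 3 d sample a lay at -20.3, against 0.18 to 5.96 for the other 3 d samples. That sample held the lowest 3 d value in 32 of 43 collagen genes (74.4%, against 45.7% of all genes) and the lowest of all 32 samples in 24. Without it the 3 d counts gained Col1a1, Col3a1, Col5a1, Col14a1 and Col16a1 as higher and lost Col6a1 and Col6a2 as lower.

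Levels spanned more than 3 orders of magnitude. Averaged over the 32 samples, Col3a1 (type III collagen of loose connective tissue) was highest at 104 FPKM. Col1a1 and Col1a2, the paired chains of type I collagen, followed at 71.5 and 55.6 FPKM. Col1a2 had more fragments than Col1a1 in every sample, over a longer merged exon length (12426 against 6563 bases). Their order thus depends on the lengths used. The ubiquitous type IV pair Col4a1 and Col4a2 averaged 43.3 and 33.9 FPKM, and the type VI chain Col6a1 stood between them at 37.8 FPKM.

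At the other end, Col6a4 and Col9a3 were near zero, with a mean under 0.1 FPKM in each of the 8 groups. Col6a4 was the 1 collagen gene that missed the filter for testing (0.1 FPKM in at least 4 samples), with 0 to 7 fragments a sample. Col9a3 had 0 to 10 fragments a sample, and 234 bases of its exons lie opposite those of Tcfl5. Type IV chain Col4a6 had 2 to 25 fragments, the skin hemidesmosome collagen Col17a1 4 to 30, and the cartilage chain Col9a2 1 to 15. At this depth no statement on a change can rest on these 5 genes. The strand setting of the counting is not given in the sources used here, so reads of genes on opposite strands cannot be told apart where exons overlap.

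Sequences are from RefSeq on GRCm38.p6, whose promoter table held 35 of the 44 genes, not Col12a1, Col14a1, Col1a1, Col22a1, Col26a1, Col2a1, Col4a3, Col5a2 and Col9a3. These motifs were searched on both strands in the 250 bases before each start: the TATA box TATAAA, the CCAAT box CCAAT, the GC box GGGCGG and the AP-1 site TGANTCA. The first sequence is 123 bases of the Col1a2 window (chr6:4505370-4505492, plus strand), cut to leave out exons. It ends just before the first exon of the full-length GENCODE transcript at 4505493, upstream of the RefSeq start at 4505618, and it lies in an intron of a shorter GENCODE transcript that starts at 4504814. The Col3a1 sequence is the 250 bases before its start (chr1:45311288-45311537, plus strand). Both are shown to let the motif content of abundant fibrillar genes be compared, with motif matches, none of which overlap, in capitals. The last sequence is the 30 bases around the head-to-head starts of Col4a1 and Col4a2 (chr8:11312801-11312830, plus strand), shown because the pair shares 1 start region, with the 22 bases from the Col4a2 start to the Col4a1 start in capitals.
Col1a2: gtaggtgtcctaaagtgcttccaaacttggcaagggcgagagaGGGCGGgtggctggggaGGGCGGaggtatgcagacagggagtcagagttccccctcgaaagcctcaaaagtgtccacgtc
Col3a1: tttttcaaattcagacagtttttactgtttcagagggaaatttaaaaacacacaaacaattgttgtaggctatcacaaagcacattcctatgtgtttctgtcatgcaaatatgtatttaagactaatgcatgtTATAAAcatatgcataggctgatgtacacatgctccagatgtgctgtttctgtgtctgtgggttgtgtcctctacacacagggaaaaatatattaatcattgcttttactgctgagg
Col4a1 and Col4a2: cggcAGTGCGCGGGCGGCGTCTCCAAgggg
The Col1a2 window held GC boxes at bases 205 to 200 and 188 to 183 before the RefSeq start and a CCAAT box at 109 to 105, past the printed stretch. In the Col3a1 window the only match was TATAAA, at 117 to 112 bases before the annotated start. GGGCGG was in 57.9% of the 38 collagen windows and in 32.7% of all 32851 windows. The other shares were 13.2% and 12.4% for TATAAA, 34.2% and 33.8% for CCAAT, and 2.63% and 6.75% for TGANTCA. Col4a1 and Col4a2 are read away from each other from starts 21 bases apart on chromosome 8, and 22 bases of their exons overlap on opposite strands.

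Each day was compared with 0 d by limma on log2(FPKM + 1), a scale that understates changes of genes under about 1 FPKM, and a gene was called at an adjusted p under 0.05 and a change of at least 1.5-fold. In whole muscle, fewer cells of a type and less RNA per cell cannot be told apart. Of 43 collagen genes tested, 28 were called on at least 1 of the 7 days, where 33.2% of the 22071 genes tested were. Higher on at least 1 day were 19 (25.7% of all genes) and lower 10 (8.19%), with Col22a1 in both directions, and after median-ratio scaling, described next, 11 (15.8%) and 14 (13.9%). By class the 28 were 7 of 11 fibrillar genes, none of 6 basement membrane genes and 21 of 26 others. At 1 d, 1 collagen gene was higher and 2 were lower, where 6.34% and 2.49% of the 22071 genes tested were. At 3 d the counts were 6 higher and 9 lower (13.2% and 6.03% of all genes), and without the sample that stands apart 11 and 7. At 5 d, 11 were higher and 2 lower (14.9% and 3.86%). At 7 d, 8 were higher and 3 lower (15.4% and 4.1%). At 14 d, 10 were higher and 2 lower (14.6% and 3.83%). At 21 d, 5 were higher and 3 lower (11.8% and 3.93%). At 28 d, 12 were higher and 2 lower (14.2% and 4.1%). Some of these counts rested on 1 sample. The 3 d count higher was 2 without the 3 d sample c, 3 without b, and 4 without d, C2 or C4, and the 21 d count was 3 without the 21 d sample b. At 1 d the count lower was 1 without C4 or the 1 d samples a or b, and the count higher was 0 without C1, C2 or the 1 d samples a, c or d and 2 without b.

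These counts depended on the total that FPKM divides by. Among 11943 genes with a mean of at least 1 FPKM, the median log2 fold change as deposited was 0.12 at 1 d and 0.20 to 0.32 later. Median-ratio scaling, which sets the typical gene equal between samples, lowered log2 fold changes by 0.14 at 1 d and by 0.18 to 0.31 later. After it, with the share of all genes in brackets, 0 collagen genes were higher (4.14%) and 9 lower (4.69%) at 1 d. The counts were 3 (9.02%) and 10 (9.17%) at 3 d, 7 (6.71%) and 7 (7.7%) at 5 d, and 6 (7.16%) and 6 (7.92%) at 7 d. Later they were 6 (6.59%) and 5 (7.55%) at 14 d, 3 (6.45%) and 3 (7.17%) at 21 d, and 7 (6.59%) and 5 (8.11%) at 28 d. At 1 d an unadjusted p under 0.05 as deposited gave 2 higher and 18 lower (25% and 12.1% of all genes), and limma-voom called 1 and 18 (7.26% and 8.51%). Collagen genes with every sample above, and every sample below, all of 0 d numbered, with the shares of all genes, 2 and 17 (19.9% and 8.6%) at 1 d, 4 and 11 (23% and 12.3%) at 3 d, 16 and 6 (35.9% and 8.93%) at 5 d and 13 and 5 (32.4% and 8.47%) at 7 d. They numbered 16 and 5 (36.8% and 8.13%) at 14 d, 17 and 10 (32.9% and 9.99%) at 21 d and 20 and 6 (36.6% and 9.06%) at 28 d. As deposited, the 43 genes had a median log2 fold change of -0.27, -0.09, 0.14, 0.10, 0.08, 0.13 and 0.35 at 1, 3, 5, 7, 14, 21 and 28 d, beside 0.03, 0.06, 0.13, 0.13, 0.15, 0.10 and 0.14 for all genes tested. After median-ratio scaling it was -0.37, -0.19, -0.03, -0.05, -0.06, -0.06 and 0.10, so that the sign at 5, 7, 14 and 21 d turned, beside -0.01 and 0.02 at 1 and 28 d for all genes and values between these on the other days.

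**Figure D1:**
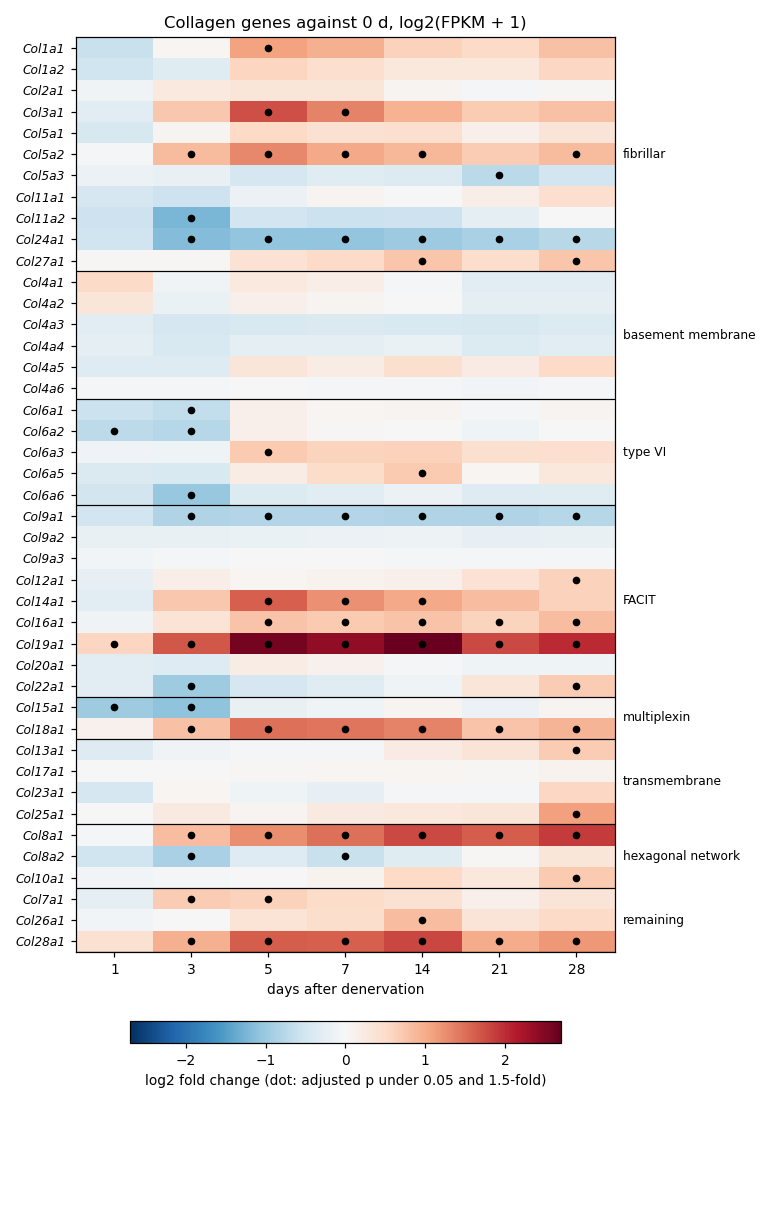
Log2 fold changes against 0 d (colour, on the log2(FPKM + 1) scale) of the 43 collagen genes tested, in rows by class, at 7 days after denervation in columns. Dots mark calls at an adjusted p under 0.05 and 1.5-fold, which stand on 6 or 7 days for Col19a1, Col8a1, Col18a1 and Col28a1 (higher) and Col9a1 and Col24a1 (lower) and are missing from all 6 basement membrane rows.

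Among the fibrillar genes, Col1a1, Col1a2, Col3a1, Col5a1 and Col5a2 each had their lowest group mean at 1 d and their highest at 5 d. After median-ratio scaling 0, 0, 2, 1, 1, 0 and 1 of the 11 were higher and 2, 3, 3, 3, 3, 2 and 2 lower from 1 to 28 d. Of all genes 4.14, 9.02, 6.71, 7.16, 6.59, 6.45 and 6.59% were then higher and 4.69, 9.17, 7.7, 7.92, 7.55, 7.17 and 8.11% lower. Lower calls thus outnumbered higher ones on every day among all genes too. The fibrillar genes called lower after scaling were Col5a3, Col11a1, Col11a2 and Col24a1, and none of Col1a1, Col1a2, Col3a1, Col5a1 and Col5a2 was. As deposited, the class had 1, 3, 2, 2, 0 and 2 genes higher at 3, 5, 7, 14, 21 and 28 d and 2, 1, 1, 1, 2 and 1 lower, and at 1 d limma called 0 in either direction, with 0 higher and 3 lower at an unadjusted p under 0.05 and 0 and 3 by limma-voom. At 21 d, where 0 were higher, these were 2 and 1 (36.1% and 11.6% of all genes). Col3a1 (ENSMUSG00000026043, chr1:45311538-45349706, plus strand, GRCm38) measured 47.6, 48.5, 59.2 and 59.5 FPKM at 0 d and 149.8, 178, 194 and 203 at 5 d. The 5 d values all lay more than 2-fold above the highest value of 0 d. Its log2 fold change was 1.73 ± 0.42 (SE), adjusted p = 0.0012. At 7 d the samples spread from 96.6 to 227 FPKM and still all exceeded 0 d (1.34 ± 0.42 (SE), adjusted p = 0.0103), a call that was lost without the 7 d sample d. At 28 d the mean was 94.8 FPKM, where the difference from 0 d did not pass the test (0.79, adjusted p = 0.13). Both calls held after median-ratio scaling, at 1.35 and 0.96.

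Col1a1 (ENSMUSG00000001506, chr11:94936224-94953042, plus strand) also had its lowest mean at 1 d and its highest at 5 d, with a smaller change. It measured 42.2, 43.3, 45.6 and 57.5 FPKM at 0 d, 24.4, 27.7, 32.5 and 38.2 at 1 d and 87.7, 92.7, 104 and 121 at 5 d. All 1 d samples lay below and all 5 d samples above the 0 d range, and only the rise at 5 d passed the test (1.09 ± 0.43 (SE), adjusted p = 0.0385). That call was lost after median-ratio scaling (0.70, adjusted p = 0.152) and in the fits without any 1 of 6 samples, C2, C3, C4 and the 5 d samples b, c and d. The 3 d samples spanned 9.76, 49.9, 102 and 106 FPKM, the lowest being the sample that stands apart. Col1a2 (ENSMUSG00000029661, chr6:4504814-4541544, plus strand), part of whose RefSeq promoter window is given above, ran from 32.0 FPKM at 1 d to 69.8 at 5 d, against 46.7 at 0 d, and was called on no day against 0 d (largest log2 fold change 0.58, adjusted p = 0.175). Its log2 fold changes of 0.29 at 14 d and 0.29 at 21 d turned to -0.10 and -0.02 after median-ratio scaling.

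**Figure D2:**
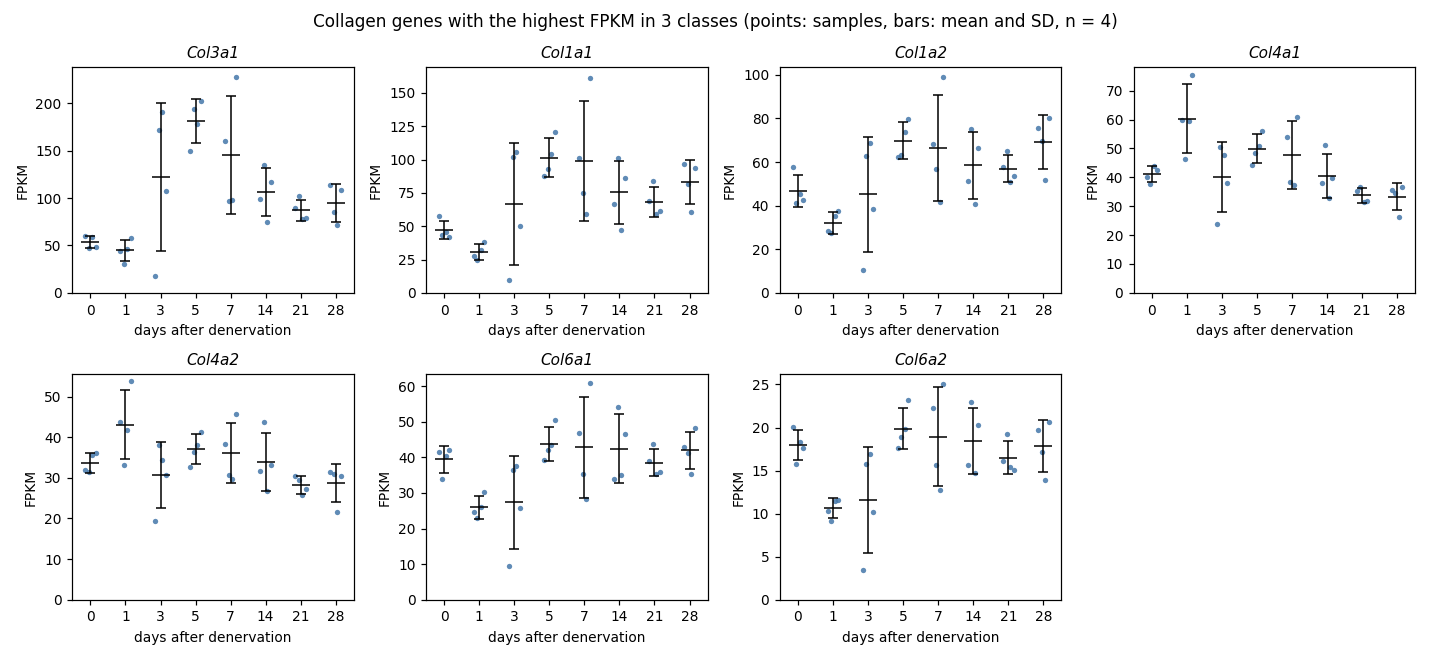
FPKM of the 3 fibrillar, 2 basement membrane and 2 type VI genes with the highest means, against days after denervation (not to scale), with a point per sample and bars for the mean and SD of 4 samples. Col3a1, Col1a1 and Col1a2 have their highest means at 5 d, Col4a1 and Col4a2 at 1 d, and the lowest point at 3 d in all 7 panels is the same sample.

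Type V chains, which regulate the diameter of type I fibrils, differed in their calls. Col5a2 rose at 3, 5, 7, 14 and 28 d, with log2 fold changes of 0.86, 1.30, 1.02, 0.89 and 0.86. Its mean went from 9.86 FPKM at 0 d to 25.7 at 5 d and was 18.8 at 28 d, but after median-ratio scaling only the 5 d call held, and each of the others was lost without some 1 sample. Col5a1 kept means of 7.33 to 15.4 FPKM with no call against 0 d, and Col5a3 fell at 21 d (-0.73 ± 0.22 (SE), adjusted p = 0.00697), from 8.60, 8.75, 8.78 and 9.37 FPKM to 4.45, 4.61, 4.70 and 6.13. After scaling Col5a3 was lower on 5 of the 7 days.

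Of the low fibrillar chains, Col24a1 fell on every day from 3 to 28 d, from 1.07, 1.40, 1.56 and 1.64 FPKM at 0 d to 0.0467, 0.0564, 0.0706 and 0.0771 at 3 d. There was no overlap between those groups (-1.18 ± 0.06 (SE), adjusted p = 2.74e-15). Its means were 0.149, 0.221, 0.306 and 0.438 FPKM at 5, 14, 21 and 28 d, the last with a log2 fold change of -0.75. Col11a2, a chain of the thin fibrils of cartilage, fell at 3 d (-1.24 ± 0.13 (SE), adjusted p = 3.05e-09), from 1.65, 2.01, 2.097 and 2.25 to 0.0760, 0.165, 0.429 and 0.431 FPKM, and its 28 d mean of 1.99 FPKM stood beside 2.00 at 0 d. After scaling it was lower on 5 of the 7 days, 1 to 14 d. Col27a1 rose at 14 and 28 d, by 0.75 and 0.74 on the log2 scale, from 0.226, 0.269, 0.310 and 0.347 FPKM at 0 d to 0.700, 1.26, 1.29 and 1.45 at 28 d. With a pseudocount of 0.1 it was called higher on 5 of the 7 days. Col2a1, the main cartilage chain, stayed between 0.0337 and 0.752 FPKM, and Col11a1 between 0.149 and 2.04, with no call for either as deposited. After scaling Col11a1 was lower at 3 d (-0.70, adjusted p = 0.000111). A pseudocount of 0.1, which weighs low values more, called Col2a1 higher at 5 and 7 d (1.12 and 1.08) and Col11a1 lower at 1 and 3 d (-1.36 at 3 d).

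None of the 6 basement membrane chains was called against 0 d, and the pair that makes most type IV collagen ran in another order of days than the fibrillar genes. Col4a1 (ENSMUSG00000031502, chr8:11198423-11312826, minus strand) measured 37.8, 40.2, 42.5 and 44.0 FPKM at 0 d and 46.3, 59.4, 59.8 and 75.5 at 1 d, its highest group. All 1 d values lay above 0 d, and the difference passed on its p but missed 1.5-fold (0.52 ± 0.18 (SE), adjusted p = 0.0295). At 28 d the values were 26.4, 34.5, 35.7 and 36.6 FPKM, all below 0 d, with a difference that did not pass as deposited (-0.31, adjusted p = 0.175) and passed after median-ratio scaling (-0.68, adjusted p = 0.000148). Col4a2 (ENSMUSG00000031503, chr8:11312805-11449287, plus strand), its head-to-head neighbour, had means of 33.7 FPKM at 0 d, 43.1 at 1 d and 28.7 at 28 d. Its 28 d log2 fold change was -0.24 as deposited and -0.61 after scaling (adjusted p = 0.265 and 0.000283). For both genes the log2 fold changes at 5 and 7 d were above 0 as deposited (0.08 to 0.27) and below 0 after scaling (-0.29 to -0.11), none of them called.

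The tissue-restricted chains Col4a3 and Col4a4, which pair with Col4a5 in kidney glomeruli, were low. Col4a3 measured 0.464, 0.599, 0.739 and 0.854 FPKM at 0 d and 0.184 to 0.387 in all 24 samples from 3 to 28 d, with no overlap. On the log2(FPKM + 1) scale its largest change was -0.45 at 3 d (adjusted p = 3.86e-07), short of 1.5-fold, while with a pseudocount of 0.1 it was called lower on all 7 days (-1.26 at 3 d), and 563 bases of its exons lie opposite C430014B12Rik. Col4a4 measured 0.619, 0.813, 1.04 and 1.11 FPKM at 0 d and 0.365, 0.413, 0.428 and 0.443 at 3 d, and was called lower at 3, 21 and 28 d with that pseudocount only. Col4a5 had its lowest mean at 1 d (0.912 FPKM) and its highest at 28 d (2.49), beside 1.44 at 0 d. With a pseudocount of 0.1 it was called on 4 of the 7 days. At an unadjusted p under 0.05 the class had 0 or 1 gene higher and 2 or 3 lower on each day against 0 d, and limma-voom on recovered fragments called 2 to 4 lower and 0 higher. Of all genes 25 to 42.2% were higher and at most 16.3% lower at that p, and limma-voom called 7.26 to 14.3% and 8.51 to 15.8%.

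The main type VI chains Col6a1 and Col6a2 were lowest at 1 and 3 d, and Col6a3 had its highest mean at 5 d. Col6a1 (ENSMUSG00000001119, chr10:76708792-76726168, minus strand) measured 33.9, 40.4, 41.5 and 42.1 FPKM at 0 d, 22.9, 24.5, 26.2 and 30.3 at 1 d and 9.61, 25.8, 36.3 and 37.6 at 3 d. The 1 d samples all lay below 0 d (-0.59 ± 0.26 (SE), adjusted p = 0.093, not called as deposited and called after median-ratio scaling at -0.77), and the 3 d fall was called (-0.67 ± 0.26 (SE), adjusted p = 0.0357) but not without the sample that stands apart or without C1, C3 or C4. From 5 to 28 d its log2 fold changes were within -0.04 to 0.15 as deposited and within -0.33 to -0.24 after median-ratio scaling, with no call on either scale, so the sign at 5, 7, 14 and 28 d depended on the scaling. Col6a2 (ENSMUSG00000020241, chr10:76595762-76623630, minus strand) fell at 1 d (-0.71 ± 0.26 (SE), adjusted p = 0.0438), from 15.8, 17.7, 18.3 and 20.1 to 9.11, 10.3, 11.4 and 11.6 FPKM without overlap. That call was lost without any 1 of the 8 samples compared but stood after scaling (-0.89). At 3 d it fell by 0.77 on the log2 scale, a call lost without C1 or the sample that stands apart.

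Col6a3, the largest chain of the type VI trimer, rose at 5 d (0.71 ± 0.27 (SE), adjusted p = 0.0319), from 9.66, 11.4, 12.7 and 13.1 FPKM to 16.6, 19.1, 21.02 and 22.6. After scaling the 5 d change was 0.35 and not called, and the call was also lost without C1, C2 or the 5 d samples c or d. Col6a6 fell at 3 d (-1.01 ± 0.11 (SE), adjusted p = 3.84e-09), from 1.51, 1.57, 2.26 and 2.38 to 0.335, 0.346, 0.498 and 0.590 FPKM, and the sample that stands apart lay close to sample b. After scaling Col6a6 was lower at 1 and 5 d too. Col6a5 was called higher at 14 d (0.72 ± 0.29 (SE), adjusted p = 0.0451) with wide spread, from 0.368, 0.536, 0.705 and 0.745 FPKM at 0 d to 0.538, 1.005, 2.12 and 3.73, groups that overlap. This call was lost after scaling (0.53, adjusted p = 0.131) and without any 1 of 6 samples, all 4 of 0 d and the 14 d samples b and d. The median log2 fold change of the 5 type VI genes tested at 1, 3 and 28 d was -0.49, -0.67 and 0.08, and after scaling -0.63, -0.91 and -0.29, so that the sign at 28 d turned.

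Of the FACITs, Col19a1 had the largest change of all 43 collagen genes. Col19a1 (ENSMUSG00000026141, chr1:24261890-24587472, minus strand), a minor collagen made by developing muscle and by some neurons, measured 0.117, 0.160, 0.302 and 0.352 FPKM at 0 d and 4.58, 6.63, 8.30 and 8.54 at 14 d. No sample of any later day came down to the 0 d range, the nearest being 0.538 FPKM at 1 d. The means were 0.857, 3.03, 6.42, 5.76, 7.01, 3.28 and 3.95 FPKM from 1 to 28 d. It rose on all 7 days, with log2 fold changes from 0.59 ± 0.20 (SE) at 1 d to 2.67 at 14 d (adjusted p = 0.0249 and 5.22e-12). The 1 d call was lost without any 1 of 5 samples and after scaling, where the change of 0.57 missed 1.5-fold, and the later calls held. With a pseudocount of 0.1 the 14 d change was 4.44.

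Col14a1 (ENSMUSG00000022371, chr15:55307750-55520803, plus strand), which spaces type I fibrils, measured 5.08, 5.28, 7.27 and 7.51 FPKM at 0 d and 17.7, 20.8, 22.7 and 22.9 at 5 d. The groups were far apart (1.61 ± 0.36 (SE), adjusted p = 0.000532). It was still higher at 7 d (1.23) and 14 d (1.02), the latter lost after scaling (0.66) and without C2, C4 or the 14 d sample d. At 28 d the samples stood at 8.06, 10.3, 10.9 and 11.2 FPKM, which did not pass (0.62, adjusted p = 0.168). Its close relative Col12a1 rose at 28 d alone (0.63 ± 0.25 (SE), adjusted p = 0.0409), a call lost in 6 of the fits that leave out a sample and after scaling (0.36). Col16a1 rose from 5 to 28 d by 0.61 to 0.84 on the log2 scale, from 1.65, 1.92, 1.92 and 2.02 FPKM at 0 d to 3.70, 4.07, 4.40 and 4.40 at 28 d. After scaling its changes were 0.40 to 0.57 and under 1.5-fold, and the calls at 7 d and 21 d were each lost without some 1 sample.

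Col9a1, a chain on the surface of cartilage fibrils, measured 0.439, 0.733, 0.858 and 1.04 FPKM at 0 d and 0.122, 0.167, 0.222 and 0.406 at 1 d. It was listed at 0 in all 4 samples at 21 d, at least 21.5-fold below the 0 d mean with a floor of 3 fragments in each library. From 3 to 28 d it reached at most 0.0563 FPKM and fell on each of those 6 days (-0.81 ± 0.07 (SE), adjusted p = 3.48e-11 at 21 d). Col22a1, which is placed at the muscle-tendon junction, took opposite directions early and late. It fell at 3 d (-0.96 ± 0.13 (SE), adjusted p = 6.3e-07), from 1.87, 1.96, 2.26 and 2.48 to 0.442, 0.610, 0.654 and 0.766 FPKM, and rose at 28 d (0.69 ± 0.13 (SE), adjusted p = 7.89e-05), to 2.85, 3.67, 4.64 and 5.46 FPKM. Neither group overlapped with 0 d, and the 28 d call was lost after scaling (0.41) and without the 28 d sample a. After scaling it was lower at 5 and 7 d too. Col20a1 had means of 0.524 to 1.22 FPKM and no call.

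The multiplexins, both of muscle basement membrane zones, parted early. Col18a1 (ENSMUSG00000001435, chr10:77052178-77166548, minus strand), the source of the fragment endostatin, measured 3.47, 3.55, 3.62 and 3.83 FPKM at 0 d, 8.11, 9.96, 15.3 and 16.1 at 5 d and 5.73, 9.57, 13.4 and 23.8 at 7 d. All samples of both days lay above 0 d (1.49 ± 0.28 (SE), adjusted p = 5.46e-05 and 1.45 ± 0.28 (SE), adjusted p = 7.19e-05). It was called higher on all days from 3 to 28 d, with a mean of 7.79 FPKM at 28 d. After scaling 5 of those 6 calls held, and the 21 d change was 0.52. The 3 d call was lost without the 3 d samples b or c, and the 21 d call without C2 or the 21 d sample b. Col15a1, whose product stabilises muscle fibres and capillaries, fell at 1 d (-0.95 ± 0.24 (SE), adjusted p = 0.00224), from 12.4, 12.98, 13.7 and 13.97 to 5.89, 6.18, 6.36 and 7.12 FPKM. It fell at 3 d too (-1.09), with the 3 samples other than a at 6.35, 8.23 and 8.58 FPKM and all below 0 d. Its means from 5 d on were 11.5 to 14.1 FPKM, beside 13.3 at 0 d.

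Col8a1 (ENSMUSG00000068196, chr16:57624258-57754737, minus strand), a short chain of vessel walls and of the corneal sheet, rose from 3 d on and was highest at the last day. It measured 2.14, 2.33, 2.43 and 2.68 FPKM at 0 d, 8.53, 8.55, 13.4 and 13.5 at 14 d and 8.24, 11.9, 12.4 and 14.2 at 28 d. The late samples did not overlap with 0 d (1.88 ± 0.32 (SE), adjusted p = 1.87e-05). At 3 d 1 sample was at 1.34 FPKM and the others at 7.07 to 7.83, the low one being the sample that stands apart, and this call (0.84) was lost after scaling and without any 1 of 6 other samples. Its partner chain Col8a2 fell at 3 d (-0.87 ± 0.15 (SE), adjusted p = 2.78e-05) and 7 d (-0.59), with means of 1.82, 0.558, 0.864 and 2.58 FPKM at 0, 3, 7 and 28 d. The 7 d call was lost without C1, C2 or the 7 d samples b, c or d, and after scaling Col8a2 was lower on 5 days, 1 to 14 d. Col10a1, the growth plate collagen, had 1 of 4 samples above 0.1 FPKM at 0 d (0, 0.0201, 0.0209 and 0.171) and 0.590, 0.620, 0.831 and 0.837 FPKM at 28 d, a rise that passed the test (0.71 ± 0.09 (SE), adjusted p = 2.93e-07). A stretch of 18 bases of its exons lies opposite exons of Nt5dc1, which averaged 5.39 FPKM.

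Of the 3 remaining genes, Col28a1 (ENSMUSG00000068794, chr6:7997808-8192617, minus strand), a collagen known from the nodes and terminal Schwann cells of peripheral nerve, was called higher from 3 to 28 d. It measured 0.655, 0.815, 0.888 and 0.940 FPKM at 0 d and 2.75, 4.67, 7.51 and 7.84 at 14 d. The groups did not overlap (1.80 ± 0.30 (SE), adjusted p = 1.17e-05), and the means of 5, 7, 21 and 28 d were 4.82, 5.07, 2.71 and 3.22 FPKM. All 6 calls held after scaling, and the 3 d call was lost without the 3 d sample c. The anchoring fibril gene Col7a1 rose at 3 and 5 d (0.69 and 0.62), from 1.17, 1.86, 2.06 and 2.19 FPKM to 3.07, 3.23, 3.86 and 3.98 at 3 d, under 1.5-fold after scaling, and both calls were lost without C1. At 3 d its highest sample was the one that stands apart. Col26a1 rose at 14 d (0.84 ± 0.16 (SE), adjusted p = 8.25e-05), from 0.103, 0.108, 0.184 and 0.188 to 0.529, 0.790, 1.44 and 1.60 FPKM. With a pseudocount of 0.1 it was called on 5 days.

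**Figure D3:**
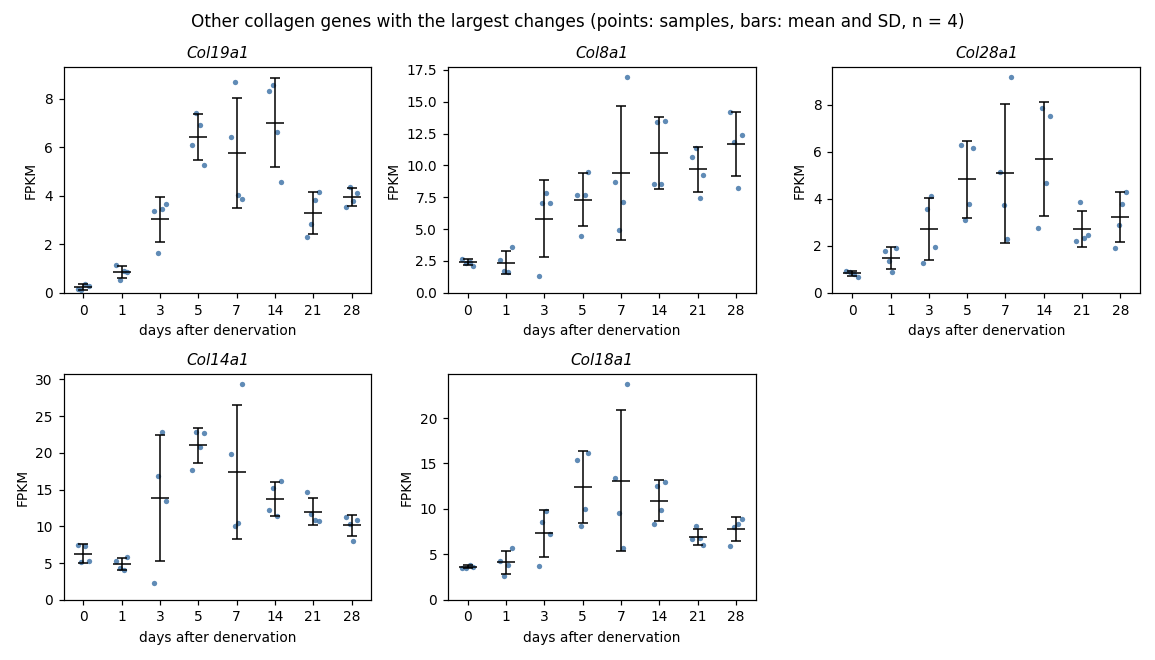
FPKM of the 5 further collagen genes with the largest change, Col19a1, Col8a1, Col28a1, Col14a1 and Col18a1, against days after denervation (not to scale), with a point per sample and bars for the mean and SD of 4 samples. Col14a1 and Col18a1 have their highest means at 5 and 7 d, Col19a1 and Col28a1 at 14 d and Col8a1 at 28 d.

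Among the transmembrane collagens, Col25a1, which motor axons need to enter developing muscle, measured 0.0146, 0.0201, 0.0362 and 0.0607 FPKM at 0 d, 0.216, 0.309, 0.319 and 0.377 at 21 d and 0.738, 0.859, 1.62 and 1.85 at 28 d. Every 28 d sample lay above every earlier one (1.10 ± 0.10 (SE), adjusted p = 4.08e-10). Every Col25a1 sample from 3 d on lay above all of 0 d, the lowest being 0.0655 FPKM at 3 d. A pseudocount of 0.1 called Col25a1 higher on 5 of the 7 days. Col13a1, a collagen of the neuromuscular junction, rose at 28 d (0.69 ± 0.09 (SE), adjusted p = 1.71e-07), from 0.575, 0.640, 0.662 and 0.711 to 1.56, 1.59, 1.63 and 1.84 FPKM, and after scaling the change was 0.51. Col23a1 measured 0.925, 1.22, 1.26 and 1.27 FPKM at 0 d and 1.71, 1.73, 2.72 and 2.73 at 28 d, which passed on its p and missed 1.5-fold (0.56 ± 0.14 (SE), adjusted p = 0.00183). Between 14 and 28 d, 4 collagen genes rose (0.512% of all genes did) and 0 fell (0.471%). They were Col25a1 (0.81), Col22a1 (0.80), Col8a2 (0.66) and Col23a1 (0.62), named here because the count is small. The count was 2 without the 28 d sample a or without b, and 7 with limma-voom, which called 0 lower. At an unadjusted p under 0.05, 8 were higher and 2 lower. Of all genes limma-voom called 1.07% higher and 0.657% lower, and that p gave 6.41% and 7.74%.

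**Figure D4:**
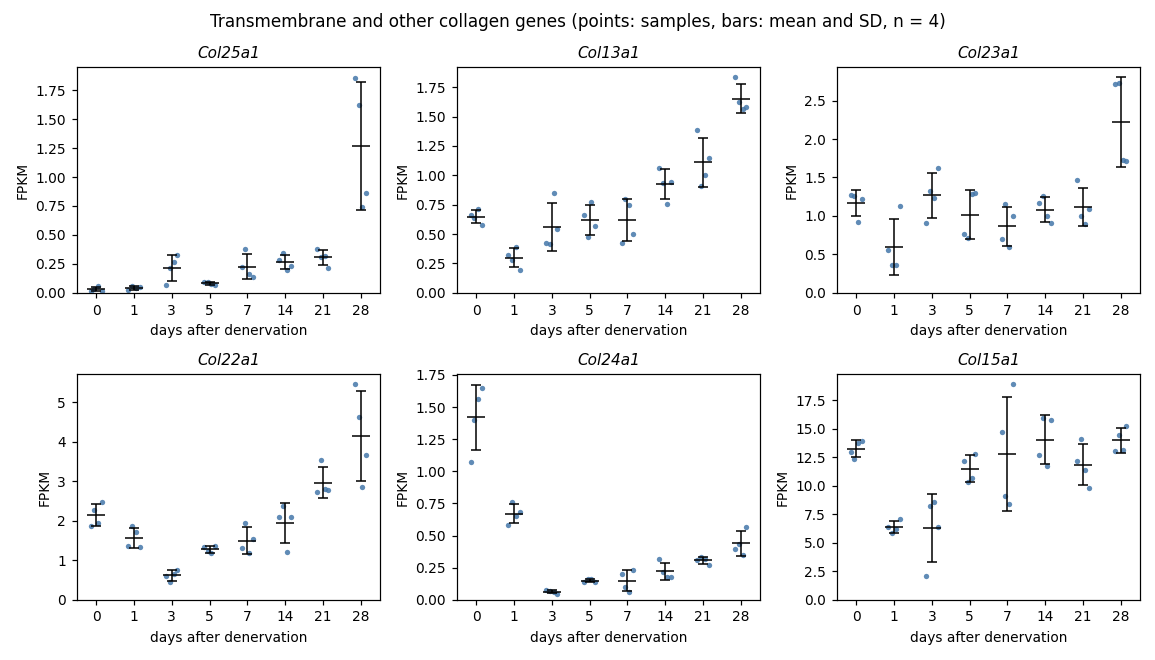
FPKM of the transmembrane genes Col25a1, Col13a1 and Col23a1, the FACIT Col22a1, the fibrillar Col24a1 and the multiplexin Col15a1, drawn because of their values, against days after denervation (not to scale), with a point per sample and bars for the mean and SD of 4 samples. The first 4 are highest at 28 d, Col24a1 is highest at 0 d, and Col15a1 has its lowest means at 1 and 3 d.

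Leaving out the rare genes with at most 30 fragments in every sample, 7 of the other 39 had their highest group mean at 0 d, 10 at 5 d and 11 at 28 d, where 11.9, 12.4 and 17.8% of all genes did. The lowest mean was at 0 d in 5, at 1 d in 19 and at 3 d in 11 (40.6, 18.0 and 18.7% of all genes). From 1 to 7 d, 17 collagen genes rose and 0 fell, where 9.99% and 3.92% of all genes did. This count was 9 without the 7 d sample d, 11 without the 7 d sample a or the 1 d sample b, and 21 without the 7 d sample c. After median-ratio scaling it was 13 higher and 1 lower (6.74% and 5.89% of all genes), limma-voom gave 23 and 3 (12.4% and 10.1%), and at an unadjusted p under 0.05 there were 25 and 2 (30.7% and 13.4%). Among the largest were Col19a1 (1.81), Col3a1 (1.62), Col1a1 (1.58) and Col8a1 (1.54), each with all 7 d samples above all 1 d samples. Col1a2 rose over this window too (0.98 ± 0.34 (SE), adjusted p = 0.0226). From 7 to 14 d, 0 collagen genes were called by limma (0.376% of all genes higher and 0.258% lower) and 1 was called higher by limma-voom (0.653%), with 3 higher and 1 lower at an unadjusted p under 0.05 (6.99% and 6.19%). Replicates differed more at 7 d than at 5 d. Col1a1 spanned 59.2 to 161 FPKM at 7 d against 87.7 to 121 at 5 d, with sample d highest and sample c lowest, and the count against 0 d at 7 d was 5 without d and 13 without c.

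Ratios of genes within a sample do not depend on the total. Pooling 14, 21 and 28 d (12 samples) against 0 d (4 samples), each was tested by two-sided exact permutation over 1820 splits, with p adjusted over 6 ratios and a smallest possible p of 0.00055. Col1a2 per Col1a1 was 0.990 at 0 d and 0.820 later (geometric means), a log2 difference of -0.27 with all 12 late samples below all 4 at 0 d (exact permutation, adjusted p = 0.0011). For this pair of type I chains, which combine at a fixed ratio in the protein, the mean log2 ratios at 0, 1, 5 and 28 d were -0.015, 0.066, -0.53 and -0.26. The level of this ratio depends on the exon length used for each gene, while its change between days does not. Col6a3 per Col6a1 rose from 0.295 to 0.417, with all 12 late samples above (log2 difference 0.50, exact permutation, adjusted p = 0.0011). Col4a1 per Col1a1, basement membrane to fibril, fell from 0.878 to 0.481, with all 12 late samples below (log2 difference -0.87, exact permutation, adjusted p = 0.0011).

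In 3 other ratios the difference did not pass. Col4a2 per Col4a1, the head-to-head pair, was 0.820 at 0 d and 0.843 later (exact permutation, adjusted p = 0.162). Its late samples ranged from -0.30 to -0.15 on the log2 scale, and those of 0 d from -0.34 to -0.24. Col6a2 per Col6a1 was 0.455 and 0.429 (exact permutation, adjusted p = 0.0841). Col3a1 per Col1a1 was 1.14 and 1.28 (exact permutation, adjusted p = 0.105), with day means on the log2 scale of 0.90 at 3 d, 0.84 at 5 d and 0.19 at 28 d beside 0.19 at 0 d.

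**Figure D5:**
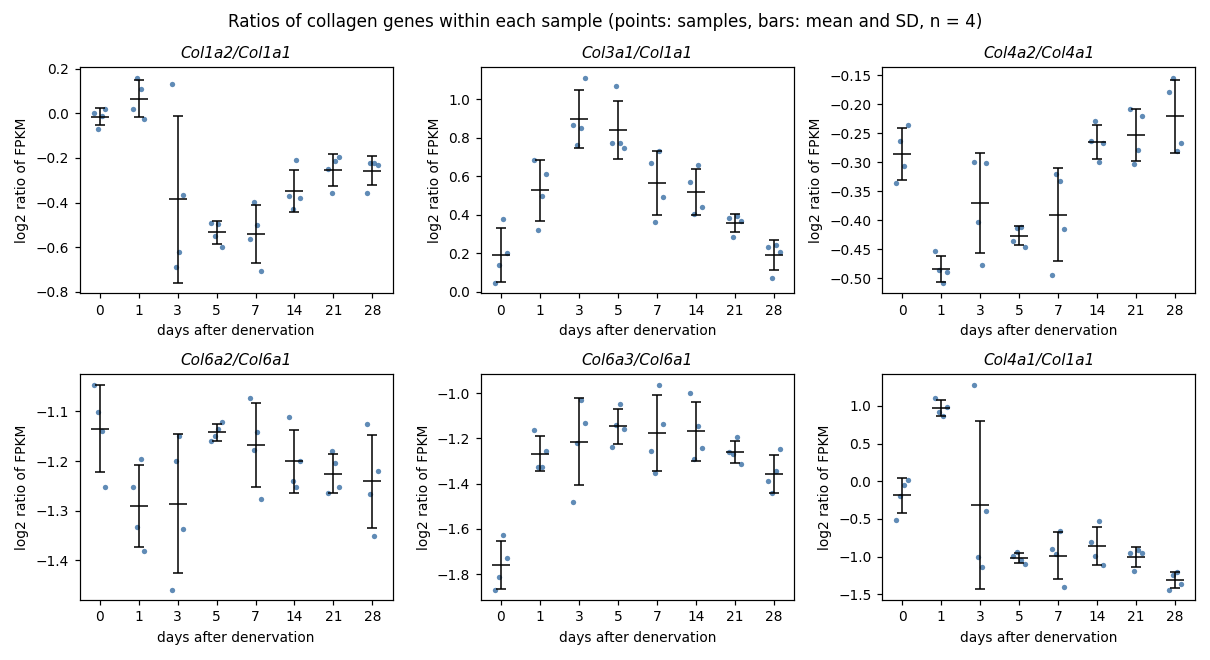
Log2 ratios of FPKM of 6 pairs of collagen genes within each sample, against days after denervation (not to scale), with a point per sample and bars for the mean and SD of 4 samples. Col1a2 per Col1a1 and Col4a1 per Col1a1 are lower at 14 to 28 d than at 0 d in all 12 samples, and Col6a3 per Col6a1 is higher in all 12.

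Genes that make and crosslink collagen were compared from a list of 34, of which 32 were tested. Called higher were 1, 6, 8, 6, 5, 3 and 6 of them at 1, 3, 5, 7, 14, 21 and 28 d, and called lower 2 at 3 d, 1 at 7 d and 0 on the other days. Of all genes 6.34, 13.2, 14.9, 15.4, 14.6, 11.8 and 14.2% were higher on these days. The list's counts at 1, 14 and 21 d were near or under the background, and those at 3, 7 and 28 d were little above it. No count of a list was tested against these shares. The same shares, and those of 2.49 to 6.03% lower, apply to the lists that follow. Lox, the enzyme that starts crosslinking, rose on all 7 days and most at 3 d (2.44, adjusted p = 7.42e-08), from a mean of 6.02 to 41.0 FPKM. Plod2, which hydroxylates lysines of the collagen ends, rose from 3 to 28 d (1.24 at 28 d). Colgalt2, a collagen galactosyltransferase, fell at 3 and 7 d (-0.95 and -0.64), and P3h2, which hydroxylates prolines of type IV collagen, fell at 3 d (-0.68). After median-ratio scaling 1 to 3 genes of the list were higher on each day and 0 to 4 lower, beside 4.14 to 9.02% and 4.69 to 9.17% of all genes. These scaled shares apply to the scaled counts of the lists that follow. The list's median log2 fold change was 0.38 at 5 d, beside 0.13 for all genes, and 0.12 beside 0.0050 after scaling. At 1, 5, 14, 21 and 28 d, where the count called lower was 0, an unadjusted p under 0.05 gave 3, 1, 2, 3 and 2 lower and limma-voom called 3, 3, 3, 3 and 3.

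Of 9 collagen receptors tested, 2 to 4 were higher on each day from 3 to 28 d. Ddr1, a receptor kinase that binds collagen, rose from a mean of 3.32 to 9.77 FPKM at 28 d (1.31, adjusted p = 1.58e-11), and Itgb1, the beta chain of collagen-binding integrins, from 88.0 to 196 FPKM at 5 d (1.15). After scaling 1 or 2 were higher on these days. At 1 d limma and limma-voom both called 0 higher, with 3 at an unadjusted p under 0.05, and over the 7 days limma called 0 lower, limma-voom 0 to 2, and an unadjusted p under 0.05 gave 0 to 2. Of 16 partners of type IV collagen in basement membranes (laminins, nidogens, perlecan and others), 1 was called, the laminin chain Lama5 at 3 d (0.96, adjusted p = 3.39e-09). In the same list an unadjusted p under 0.05 gave 1 to 3 higher and 1 to 5 lower on each day, and limma-voom called 3 to 5 lower. After scaling 4 were lower at 3 d, where 9.17% of all genes were.

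Proteins that bind fibrils moved in both directions. Of 14 small leucine-rich proteoglycans and other fibril partners, 1, 4, 4, 5, 4, 3 and 4 were higher and 2, 4, 2, 4, 1, 0 and 0 lower from 1 to 28 d. After median-ratio scaling 1, 3, 4, 4, 4, 3 and 3 were higher and 4, 4, 5, 6, 4, 1 and 3 lower. At 21 and 28 d as deposited, an unadjusted p under 0.05 gave 1 and 1 lower and limma-voom called 3 and 4. Postn, a matrix protein that binds collagen, rose from 3 d on, from a mean of 3.44 FPKM to 55.3 at 28 d (3.65, adjusted p = 2.11e-07), and the proteoglycan Bgn rose most at 5 d (1.98). The proteoglycans Kera and Fmod fell at 3 d, Kera from 16.6 to 2.54 FPKM (-2.39) and Fmod from 103 to 30.6 FPKM (-1.72).

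Markers of cells that make collagen moved with the days, and their part in the collagen values was not tested. Of 8 markers of fibroblasts and fibro-adipogenic progenitors, 1, 0, 1, 1, 1, 1 and 2 were higher and 1, 3, 1, 1, 0, 1 and 0 lower from 1 to 28 d. After median-ratio scaling 2 to 4 were lower on each day, beside 4.69 to 9.17% of all genes. Where the count higher or lower was 0, limma-voom called 0 higher at 3 d and 2 lower at 14 and 28 d, and an unadjusted p under 0.05 gave 3, 1 and 1. Their summed level was 901.8 to 1068.8 FPKM at 0 d, 661.3 to 761.3 at 5 d and 725.5 to 1069.5 at 28 d. The 3 d sample that stands apart was the lowest of its group in this sum (540.4 FPKM, others up to 777.3), in the tendon sum (45.8, others up to 153.4), the endothelial sum (47.3, others up to 68.2) and the macrophage sum (163.8, others up to 289.5). All 6 macrophage markers were higher at 3, 5 and 7 d and 4 at 28 d, with a summed level of 31.0 to 42.8 FPKM at 0 d and 163.8 to 289.5 at 3 d. The 5 tendon markers summed to 86.4 to 158.8 FPKM at 0 d and 216.2 to 339.9 at 28 d, with 2 called higher at 28 d, Scx (2.77) and Thbs4 (1.55). Tnmd, a tendon membrane protein, fell from 1 to 7 d (-3.06 at 3 d). Among Schwann cell markers, the myelin gene Mbp fell on all 7 days (-2.73 at 21 d) and S100b at 1, 3, 14, 21 and 28 d (-1.64 at 21 d), and Ngfr rose from 3 to 28 d (3.63 at 14 d). Sox10 rose at 5, 7, 14 and 28 d (1.06 at 14 d), with the calls at 5 and 28 d lost after scaling. Of the 5 endothelial markers 1 or 2 were lower from 3 d on, Kdr among them (-1.16 at 3 d), and 1 or 2 of the 5 pericyte and smooth muscle markers, Rgs5 among them (-0.96 at 3 d). After scaling 3 to 5 endothelial markers were lower on these days, and of the pericyte and smooth muscle markers 1 at 3 d and 3 on each day from 5 to 28 d. At 1 d, where 0 of either list were lower, limma-voom called 1 and 1 lower. Of 4 satellite cell markers only Myf5 was called, higher from 14 to 28 d but after scaling at 14 d alone, and of 4 adipocyte markers only Plin1, lower at 3 d. Muscle fibre markers were lower in 3 to 5 of 6 from 3 d on, and after scaling in 5 or 6. Myh1 was called higher at 21 and 28 d as deposited (0.81 and 0.90), and neither after scaling nor by limma-voom. The cartilage genes Acan, Matn1 and Hapln1 reached at most 0.07 FPKM.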

How the data were processed

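RNA-seq of 32 GAS samples was analysed from 1 deposited FPKM table. The authors aligned reads with HISAT2 2.1.0 to GRCm38 (per the submitters' processing notes) and deposited FPKM per gene; the counting tool and its strand setting are not given in the sources used here. The labels name a TruSeq kit and the study's methods another.

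Gene symbols came from GENCODE mouse release 21, which matched 33356 of 33397 identifiers. Dividing FPKM by what 1 fragment is worth, from merged exon lengths, gave whole fragments within a small margin for 99.3 to 99.4% of low values. High values, as of the abundant collagen genes, were not checked in this way. Genes with at least 0.1 FPKM in at least 4 samples (22071) were tested on log2(FPKM + 1) with limma 3.58.1 (R 4.3.3), all 8 groups in 1 fit, two-sided, with Benjamini-Hochberg adjustment over all of them. Calls needed an adjusted p under 0.05 and 1.5-fold. Limma was also tested on simulated data. Floors of 3 fragments cover counting error only. The permutation tests went through all splits with numpy 2.4.6 under Python 3.11.15, and tables and plots were made with pandas 2.3.3 and matplotlib 3.10.9.

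Members and lists were chosen with earlier results of these data known. The rule for named genes took the 3 fibrillar, 2 basement membrane and 2 type VI genes with the highest means and the 5 other called genes with the largest change, and in each list the 2 highest and 2 lowest called. Other collagen genes given with sample values were chosen after their values were seen. Of 34 synthesis genes 33 matched and 32 were tested. Alternatives were median-ratio scaling, a mitochondrial-free total, limma-voom on recovered fragments, a pseudocount of 0.1, a filter at 1 FPKM or none, no fold threshold, only the groups compared, and leaving out each sample. Some marker genes are not reported here.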

Additional observations from a re-analysis of the deposited data

Results flagged for a closer look

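Of 96 groups of 4 samples tested for a value far from the other 3, 4 were picked out, where chance gives about 5%. Col4a2 at 28 d had 1 sample (c) at 21.7 FPKM and the others at 30.4 to 31.5. Col19a1 at 3 d had sample b at 1.66 FPKM and the others at 3.36 to 3.66. Col8a1 at 3 d had sample a, the library that stands apart, at 1.34 FPKM and the others at 7.07 to 7.83. Col28a1 at 21 d had sample b at 3.85 FPKM and the others at 2.20 to 2.45.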

How the results depend on the processing

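No paired analysis was possible because the columns carry no replicate numbers that match the labels. Limits are the low depth of the rare chains and the scaling. Counts of collagen genes called against 0 d moved by over 1.5 times in the settings given next. With median-ratio scaling they were 0 higher and 9 lower at 1 d, 3 higher at 3 d, 7 and 7 at 5 d, 6 lower at 7 d, 6 and 5 at 14 d, 3 higher at 21 d, 7 and 5 at 28 d, and 1 lower from 1 to 7 d. Without a fold threshold they were 2 and 14 at 1 d, 15 lower at 3 d, 8 lower at 5 d, 13 and 9 at 7 d, 5 lower at 14 d, 10 and 7 at 21 d, 6 lower at 28 d, 1 higher from 7 to 14 d, 7 higher from 14 to 28 d and 2 lower from 1 to 7 d. With limma-voom 18, 15, 12, 11, 9, 9 and 10 were lower from 1 to 28 d, 3 lower from 1 to 7 d, 1 higher from 7 to 14 d and 7 higher from 14 to 28 d. With a pseudocount of 0.1 they were 13, 15, 6, 6, 4, 6 and 5 lower, 2 lower from 1 to 7 d, 13 higher at 7 d, 10 higher at 21 d and 1 higher from 7 to 14 d. A filter at 1 FPKM left 1 lower at 5, 14 and 28 d and 1 lower from 14 to 28 d, no filter 1 lower at 1 d, and only the groups compared 4 lower at 1 d and 8 higher at 21 d. Without the 3 d sample that stands apart, an alternative chosen after seeing the data, 11 were higher at 3 d. The cause was not tested. Log2 fold changes above 0 as deposited, none of them called, turned negative with median-ratio scaling in Col18a1 -0.040 (1 d), Col1a1 -0.18 (3 d), Col1a2 -0.098 (14 d), -0.015 (21 d), Col4a1 -0.11 (5 d), -0.19 (7 d), Col4a2 -0.25 (5 d), -0.29 (7 d), Col6a1 -0.24 (5 d), -0.31 (7 d), -0.31 (14 d), -0.29 (28 d), Col6a2 -0.24 (5 d), -0.33 (7 d), -0.36 (14 d). With limma-voom they were Col18a1 -0.033 (1 d), Col1a1 -0.19 (3 d), Col1a2 -0.095 (14 d), -0.011 (21 d), Col4a1 -0.10 (5 d), -0.19 (7 d), Col4a2 -0.24 (5 d), -0.30 (7 d), Col6a1 -0.23 (5 d), -0.31 (7 d), -0.31 (14 d), -0.29 (28 d), Col6a2 -0.24 (5 d), -0.34 (7 d), -0.38 (14 d). With mitochondrial genes left out of the total they were Col1a1 -0.047 (3 d), Col4a2 -0.059 (7 d), Col6a1 -0.074 (7 d), -0.068 (14 d), -0.029 (28 d), Col6a2 -0.10 (7 d), -0.13 (14 d). Leaving out 1 sample at a time, counts ranged from 0 to 2 higher and 1 to 3 lower at 1 d, 2 to 11 higher at 3 d, 5 to 13 at 7 d, 3 to 5 at 21 d, 9 to 21 from 1 to 7 d, and 2 to 5 higher and 0 to 1 lower from 14 to 28 d. Log2 fold changes that changed sign ranged over Col18a1 -0.025 to 0.26 (1 d), Col8a1 -0.21 to 0.059 (1 d), Col1a1 -0.32 to 0.78 (3 d), Col1a2 -0.61 to 0.25 (3 d), Col4a1 -0.22 to 0.13 (3 d), -0.15 to 0.055 (14 d), Col4a2 -0.29 to 0.028 (3 d), -0.041 to 0.16 (7 d), -0.14 to 0.086 (14 d), Col6a1 -0.12 to 0.24 (7 d), -0.043 to 0.18 (14 d), -0.10 to 0.0024 (21 d), Col6a2 -0.11 to 0.19 (7 d), -0.091 to 0.11 (14 d), -0.090 to 0.090 (28 d). The Col6a2 per Col6a1 difference kept its sign, ranging over -0.13 to -0.058, and passed the threshold without C4, the 14 d sample a or the 28 d sample a. With 1 late day alone, 4 samples against 4 allow no exact permutation p below 0.0286, which was 0.0571 after adjustment at 21 and 28 d. The log2 difference was then -0.24 at 21 d and -0.24 at 28 d for Col1a2 per Col1a1, -0.82 and -1.12 for Col4a1 per Col1a1, and 0.50 and 0.40 for Col6a3 per Col6a1. Col3a1 per Col1a1 was 0.33 at 14 d (exact permutation, adjusted p = 0.0429) and -0.0021 at 28 d.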
